A study of Mus musculus with 3 samples.

Results

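Genes of the early B lineage and of the B-cell receptor were followed in RNA-seq of bone marrow Ly6G+ myeloid cells. The set was chosen by name, with earlier results of these data known. It held Pax5, Ebf1, Cd79a, Cd79b, Vpreb1, Igll1, Vpreb3, Rag1 and Dntt, all 9 of which were among the 16072 named genes of the expression table. In the library from the AAV-IL27 mouse, each of the 9 genes was lower than in both libraries from AAV-ctrl mice, and the level left ranged from 3.66% of the AAV-ctrl mean for Pax5 to 61.7% for Igll1.

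B cells arise in the bone marrow from lymphoid progenitors. The transcription factors EBF1 and PAX5 commit these cells to the B lineage and switch on genes of the pre-B-cell receptor, in which a mu heavy chain pairs with a surrogate light chain and signals through CD79A and CD79B. RAG1 and terminal deoxynucleotidyl transferase, the product of Dntt, assemble and diversify the receptor genes in the same cells. Ly6G marks neutrophils and their precursors, which belong to another lineage.

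The 3 mice were C57BL/6 animals, taken by the study at 6 to 10 weeks of age, and all carried B16.F10 melanoma cells, placed under the skin 1 week before an adeno-associated virus (AAV) vector was given into muscle. AAV-IL27 carried mouse IL-27 cDNA, with its EBI3 and p28 chains linked, under the ubiquitous CAG promoter in an AAV2/8 vector, and AAV-ctrl was the empty vector. Cells were collected 3 weeks after the vector. The groups held 2 AAV-ctrl libraries and 1 AAV-IL27 library. The series text counts 4 mice, and 1 more data column, which its name gives as another AAV-IL27 replicate but which fits no sample listed, was left out. With 1 AAV-IL27 library analysed, no test was run, no p-value is given, and each difference is judged against how far AAV-ctrl 1 and 2 lay apart.

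Values are FPKM, fragments scaled by transcript length and by all mapped fragments of a library, deposited by the authors to 2 decimals. No counts were given. The spacing of low FPKM values put the depth at about 19100000 and 19400000 fragments in AAV-ctrl 1 and 2 and 19100000 in AAV-IL27. An FPKM of at least 1 was reached by 9206, 9337 and 8773 genes in AAV-ctrl 1, AAV-ctrl 2 and AAV-IL27. The label of the cells was met by their markers: the mean FPKM of 12 of 12 neutrophil genes reached 1, with S100a8 at 41371, 38113 and 38320 FPKM and Ly6g at 711.8, 766.1 and 586.3 FPKM, in the same order of libraries. The 9 B-lineage genes summed to 26.6, 35.62 and 5.14 FPKM in the same order, which was 0.00448%, 0.00607% and 0.000896% of all FPKM in the library. In such bulk libraries, fewer B-lineage cells and less of these RNAs per cell cannot be told apart.

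The set was chosen with earlier results of these data known, so the shares of all genes given here and below only describe it. Across the set, 9 of 9 genes were below both AAV-ctrl libraries, as were 42.4% of the 15832 genes above 0 in at least 1 library. The AAV-IL27 value was at or under 50% of the lower AAV-ctrl value for 8 of 9 genes, all but Igll1, against 13.5% of those 15832 genes. On the log2(FPKM + 1) scale, Cd79a, Cd79b, Vpreb3 and Pax5 (4 of 9) were at least 1 log2 unit below both AAV-ctrl libraries, against 1.35% of the same genes. The other 5 genes had a lower AAV-ctrl value under 1 FPKM and so could not meet this measure. Among the 9130 genes whose mean FPKM reached 1 the share was 2.32%. Only Cd79a, Cd79b and Vpreb3 (3 of 9) belong to these. Cd79a and Cd79b were above 1 FPKM in each library, but Vpreb3 belongs only through its AAV-ctrl values, so nothing is read from their count. The pseudocount of 1 shrinks the difference of the low genes, so levels are also given as a percentage of the AAV-ctrl mean with the 95% interval that counting error alone allows.

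On the log2(FPKM + 1) scale the AAV-ctrl libraries lay closer to each other than their mean to AAV-IL27 for each of the 9 genes. For Rag1 this held only narrowly, with 0.27 between the AAV-ctrl libraries and -0.29 between AAV-IL27 and their mean. The median log2(FPKM + 1) difference of the 9 genes between AAV-IL27 and the AAV-ctrl mean was -0.61, against -0.02 for all genes above 0. AAV-ctrl 2 was above AAV-ctrl 1 for 8 of 9 genes, by a median of 0.20 log2 units, Dntt being the exception. The share of all genes with either pattern was not computed, so nothing is read from these counts of genes. Among all genes above 0, AAV-ctrl 1 and 2 lay apart by a median of 0.07 and a 99th percentile of 0.54 log2 units.

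**Figure D1:**
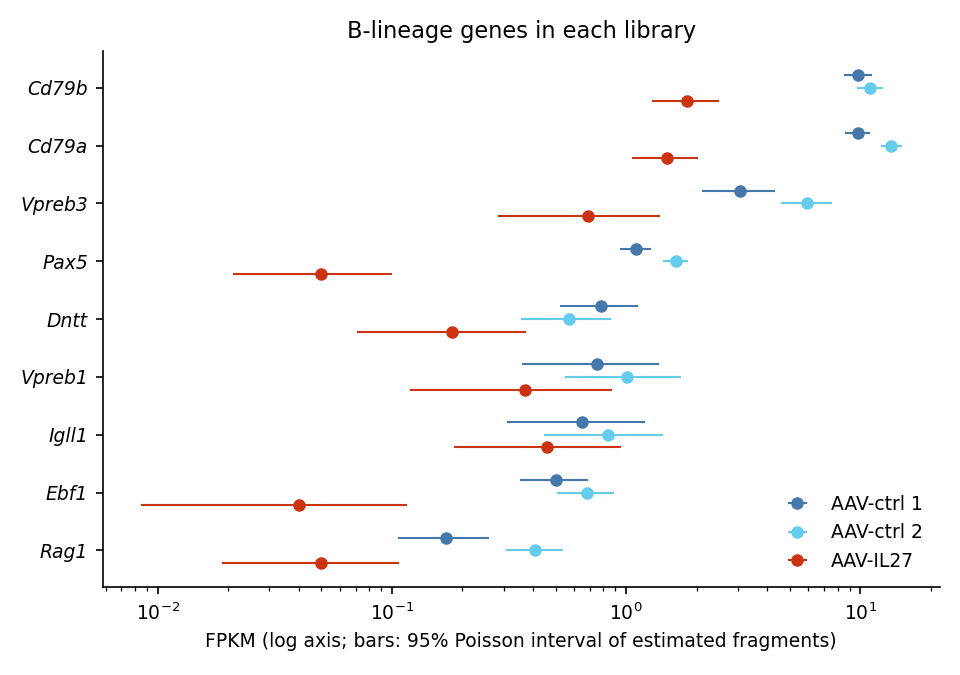
FPKM of the 9 B-lineage genes (log axis) in AAV-ctrl 1, AAV-ctrl 2 and AAV-IL27; points are single libraries and bars are exact Poisson 95% intervals of the estimated fragments, which cover counting error only. The AAV-IL27 point is the lowest of the 3 for every gene, and its bar is clear of both AAV-ctrl bars for Pax5, Ebf1, Cd79a, Cd79b and Vpreb3.

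Pax5 and Ebf1, the transcription factors of B-lineage commitment, kept the smallest share of their AAV-ctrl level by point value. The counting interval of Ebf1 overlapped those of all other genes of the set except Igll1, so its rank is not resolved. Pax5 (NCBI Gene 18507, chr4:44524757-44710487 in GRCm38, minus strand), which holds cells in the B lineage, stood at 1.10 and 1.63 FPKM in AAV-ctrl 1 and 2 and at 0.05 FPKM in AAV-IL27. The lower AAV-ctrl value was thus far above the AAV-IL27 value, about 7.6 estimated fragments standing against 166.7 and 250.9. The level left was 3.66% (95% counting interval 1.65 to 7.67%), a log2(FPKM + 1) difference of -1.16. Against AAV-ctrl 1 alone that difference was -1, exactly at the threshold of 1, so that a small rescaling removes the gene from the count of 4. Exons of Pax5 overlap those of 5730488B01Rik and Gm12462 on the opposite strand, and whether strand was used in counting is not given in the sources used here.

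Ebf1 (NCBI Gene 13591, chr11:44617317-45008091, plus strand), which acts before Pax5 in the lineage, stood at 0.50 and 0.68 FPKM in AAV-ctrl mice and 0.04 FPKM in AAV-IL27. The AAV-IL27 value was below both AAV-ctrl values, as for 42.4% of the genes above 0, and the level left was 6.78% (1.35 to 20.0%). Its RefSeq transcripts run from 2864 to 5981 nt, which puts the AAV-IL27 value at 2.1 to 4.5 estimated fragments and AAV-ctrl 1 at 26.7 to 56.5. At either length the Poisson interval of AAV-IL27 lay below those of both AAV-ctrl libraries. The log2(FPKM + 1) difference of -0.61 understates this change because every value is below 1 FPKM.

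Cd79a and Cd79b encode the pair of chains that carry the signal of the B-cell and pre-B-cell receptor, and they were the most abundant of the 9 genes in FPKM. Cd79a (NCBI Gene 12518, chr7:24897381-24902197, plus strand) was at 9.78 and 13.56 FPKM in AAV-ctrl mice (11.7 ± 2.67, SD, n = 2) and at 1.49 FPKM in AAV-IL27. The AAV-IL27 value was 12.8% of the mean (8.87 to 17.4%), the log2(FPKM + 1) difference was -2.33, and AAV-ctrl 2 exceeded AAV-ctrl 1 by 0.43 log2 units. A stretch of 298 of its 1457 nt is 98.7% identical to Gm32220, which was not analysed here. Cd79b (NCBI Gene 15985, chr11:106311341-106314762, minus strand) was at 9.81 and 11 FPKM in AAV-ctrl mice (SD 0.841, n = 2) and at 1.81 FPKM in AAV-IL27. This left 17.4% (12.2 to 24.2%), with a log2(FPKM + 1) difference of -2.02. For both chains the AAV-IL27 value was below both AAV-ctrl values, as for 42.4% of the genes above 0. Its Poisson interval also lay below those of both AAV-ctrl libraries, as for 11.1% of such genes with a transcript length. The counting intervals of Cd79a and Cd79b for the level left overlapped each other.

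The surrogate light chain genes and their partner differed in the level left, but their counting intervals overlapped one another. Vpreb3 (NCBI Gene 22364, chr10:75943057-75949657, plus strand) encodes a protein that binds newly made mu chains in pre-B cells. It was at 3.06 and 5.92 FPKM in AAV-ctrl mice and 0.69 FPKM in AAV-IL27, leaving 15.4% (5.76 to 31.5%) and a log2(FPKM + 1) difference of -1.65. Its AAV-ctrl libraries differed by 0.77 log2 units, the most of the 9 genes on the log2(FPKM + 1) scale, yet the AAV-IL27 interval stayed below both.

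Vpreb1 and Igll1 encode the 2 parts of the surrogate light chain, VpreB and lambda 5, and lie side by side on chromosome 16. Vpreb1 (NCBI Gene 22362, chr16:16868403-16870843, minus strand) was at 0.75 and 1.01 FPKM in AAV-ctrl mice and 0.37 FPKM in AAV-IL27, or 42.0% (12.5 to 112%). Igll1 (NCBI Gene 16136, chr16:16860671-16863985, minus strand) was at 0.65 and 0.84 FPKM in AAV-ctrl mice and 0.46 FPKM in AAV-IL27, or 61.7% (22.2 to 148%). Both AAV-IL27 values were the lowest of the 3, but with 4.9 and 7.0 estimated fragments the intervals reached 100%, so a fall of either gene was not detectable at this depth. Vpreb1 shares 97.4% of its bases with Vpreb2 over 759 of 766 nt, and the authors' counting could have split fragments between them. Their sum was 0.90, 1.20 and 0.37 FPKM, leaving 35.2%. Exons of Vpreb1 also overlap those of Top3b on the opposite strand, which was at 13.11, 13.45 and 13.87 FPKM, so that the value of Vpreb1 is uncertain.

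The recombination genes had the lowest summed FPKM of the role groups in both AAV-ctrl libraries. Rag1 (NCBI Gene 19373, chr2:101638282-101649501, minus strand), which encodes a subunit of the recombinase that cuts receptor gene segments, was at 0.17 and 0.41 FPKM in AAV-ctrl mice and 0.05 FPKM in AAV-IL27. Although the level left was 17.2% (5.89 to 37.8%), its AAV-IL27 interval overlapped that of AAV-ctrl 1, and the AAV-ctrl libraries differed from each other 2.41-fold. Rag1 overlaps B230118H07Rik on the same strand, which was at 0.33, 0.45 and 0.24 FPKM, so its value is uncertain. Rag2, the partner subunit, was at 0.06 and 0.09 FPKM in AAV-ctrl mice and listed at 0 in AAV-IL27.

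Dntt (NCBI Gene 21673, chr19:41029275-41059525, plus strand), which adds bases at the joins without a template, was at 0.78 and 0.57 FPKM in AAV-ctrl mice and 0.18 FPKM in AAV-IL27. It was the single gene of the 9 that was higher in AAV-ctrl 1 than in AAV-ctrl 2. The level left was 26.7% (10.6 to 61.2%), with 6.8 estimated fragments in AAV-IL27 against 29.3 and 21.8, and the interval of AAV-IL27 overlapped that of AAV-ctrl 2.

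Across the 9 genes, the Poisson interval of AAV-IL27 lay below those of both AAV-ctrl libraries for 5 of 9 genes (Pax5, Ebf1, Cd79a, Cd79b and Vpreb3), against 11.1% of the 15563 genes above 0 with a transcript length. By role, the summed FPKM left in AAV-IL27 was 4.6% of the AAV-ctrl mean for the transcription factors, 14.9% for the signalling chains, 24.9% for the surrogate light chain group and 23.8% for the recombination genes. Of the 36 pairs among the 9 genes, 7 had counting intervals of the level left that did not overlap. Pax5 was the lower gene in 5 of these, against Cd79a, Cd79b, Dntt, Vpreb1 and Igll1, and Igll1 was the higher gene against Ebf1 and Cd79a.

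**Figure D2:**
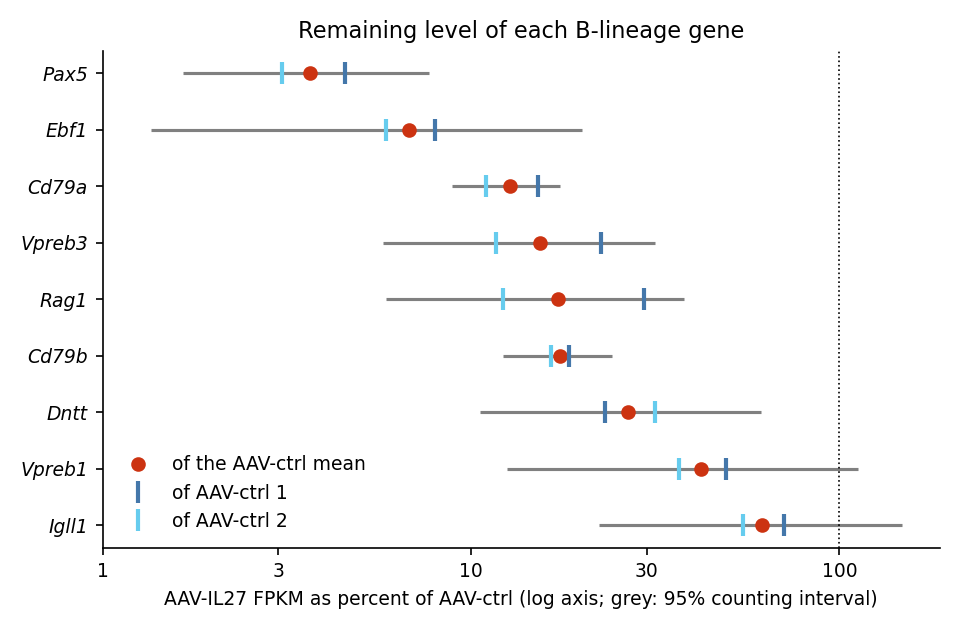
AAV-IL27 FPKM of each B-lineage gene as a percentage of AAV-ctrl (log axis); the red point is relative to the AAV-ctrl mean, ticks are relative to each AAV-ctrl library, grey lines are 95% counting intervals and the dotted line marks 100%. The genes run from Pax5 at 3.66% to Igll1 at 61.7%, and the lines of Vpreb1 and Igll1 cross 100%.

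The makeup of the remaining B-lineage signal was described by setting each gene against Cd79a in the same library, which removes any scaling between libraries. Pax5 was at 11.2% and 12.0% of the Cd79a FPKM in AAV-ctrl mice and at 3.36% in AAV-IL27. Ebf1 was at 5.11% and 5.01%, and at 2.68% in AAV-IL27. Pax5 was thus lower relative to Cd79a as well. For Ebf1, which rests on about 3.1 estimated fragments in AAV-IL27, the counting interval of the level left overlapped that of Cd79a. Igll1 moved the other way, from 6.65% and 6.19% to 30.9%, and its interval lay above that of Cd79a. Vpreb1 went from 7.67% and 7.45% to 24.8%, but on 4.9 estimated fragments its interval overlapped that of Cd79a. The intervals of the other genes also overlapped that of Cd79a: Dntt was at 7.98%, 4.2% and 12.1% of Cd79a in AAV-ctrl 1, AAV-ctrl 2 and AAV-IL27, Rag1 at 1.74%, 3.02% and 3.36%, and Cd79b at 100%, 81.1% and 121%. Vpreb3 was at 31.3% and 43.7% of Cd79a in the AAV-ctrl libraries and at 46.3% in AAV-IL27, close to the AAV-ctrl range. With 1 AAV-IL27 library these shifts have no replicate error.

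The 250 bases before a transcript start were read from the RefSeq promoter table (GRCm38.p6), since the 9 genes were lower together and several are known targets of B-lineage factors. Windows were found for 8 of the 9 genes, 9 windows in all with 2 for Ebf1, and none was listed for Cd79b. The start is the one that table uses, and in Cd79a, Vpreb1, Vpreb3 and Ebf1 it lies inside the span of the gene given above, so that all or part of the window does too. Each window, with 50 bases after the start, was searched on both strands for 4 strings: CAGGTG, an E-box bound by E2A (the product of Tcf3); ATGCAAAT, the octamer bound by OCT factors; TCCCNNGGG, part of the EBF1 consensus; and TATAAA. The E-box was in 4 of 9 windows against 20.2% of all 32851 windows, the octamer in 1 of 9 against 1.74%, TCCCNNGGG in 0 of 9 against 6.56% and TATAAA in 0 of 9 against 13.6%. Shown 5′ to 3′ on the strand of the gene are the windows with a match, with the matched letters in capitals, and that of Pax5, the gene with the smallest level left, which had none. The E-box begins 154 bases before the start in Cd79a (chr7:24897247-24897496), 135 in Rag1 (chr2:101649533-101649782), 88 in Vpreb1 (chr16:16869256-16869505) and, as CACCTG, 8 in Igll1 (chr16:16863986-16864235). The octamer, read as ATTTGCAT, begins 45 bases before the start in Vpreb3 (chr10:75948050-75948299), and the Pax5 window is chr4:44710695-44710944.
Cd79a: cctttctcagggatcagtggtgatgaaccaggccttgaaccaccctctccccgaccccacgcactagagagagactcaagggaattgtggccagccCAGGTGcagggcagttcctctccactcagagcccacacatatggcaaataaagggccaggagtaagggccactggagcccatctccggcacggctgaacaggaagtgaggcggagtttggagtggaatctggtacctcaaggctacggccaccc
Rag1: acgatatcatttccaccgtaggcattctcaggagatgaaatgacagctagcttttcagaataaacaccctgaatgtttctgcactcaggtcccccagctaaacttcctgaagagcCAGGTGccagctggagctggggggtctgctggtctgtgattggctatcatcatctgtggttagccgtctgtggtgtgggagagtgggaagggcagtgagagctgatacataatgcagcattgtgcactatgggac
Vpreb1: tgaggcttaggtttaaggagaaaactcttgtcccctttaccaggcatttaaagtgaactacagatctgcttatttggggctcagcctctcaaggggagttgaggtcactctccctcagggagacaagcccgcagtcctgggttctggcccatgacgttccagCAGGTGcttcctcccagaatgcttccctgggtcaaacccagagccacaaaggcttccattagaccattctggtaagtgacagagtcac
Igll1: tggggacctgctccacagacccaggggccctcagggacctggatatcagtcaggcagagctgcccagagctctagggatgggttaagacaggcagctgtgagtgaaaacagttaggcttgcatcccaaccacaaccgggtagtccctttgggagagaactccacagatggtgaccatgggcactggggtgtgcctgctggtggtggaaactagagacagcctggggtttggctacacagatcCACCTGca
Vpreb3: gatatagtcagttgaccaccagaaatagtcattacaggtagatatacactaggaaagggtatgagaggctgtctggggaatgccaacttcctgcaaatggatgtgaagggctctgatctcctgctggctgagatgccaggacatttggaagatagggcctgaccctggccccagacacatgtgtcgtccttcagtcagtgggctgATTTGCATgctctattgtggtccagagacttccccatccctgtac
Pax5: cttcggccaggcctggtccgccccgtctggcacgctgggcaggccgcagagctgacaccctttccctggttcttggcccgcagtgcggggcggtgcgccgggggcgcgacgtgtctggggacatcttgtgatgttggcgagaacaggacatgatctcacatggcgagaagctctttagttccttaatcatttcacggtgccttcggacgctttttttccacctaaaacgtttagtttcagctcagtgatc
A match is a description of these letters and not of a bound site. The levels left of the genes with the E-box were 12.8% for Cd79a, 17.2% for Rag1, 42.0% for Vpreb1 and 61.7% for Igll1, and the genes with the lowest levels left, Pax5 and Ebf1, had no match. Tcf3 itself was at 15.36 and 13.74 FPKM in AAV-ctrl mice and 15.42 FPKM in AAV-IL27. Because Tcf3 is active across blood lineages, its level in B-lineage cells cannot be read from these bulk libraries. A part of E2A in these differences was not tested.

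Other genes of the B-cell surface and receptor were lower in AAV-IL27 as well, with 1 exception. Of 18 listed genes, 12 were in the table, and the immunoglobulin constant genes Ighm, Ighd, Igkc, Iglc1, Iglc2 and Iglc3 were not analysed here. Of the 12, 11 were below both AAV-ctrl libraries and at or under 50% of the lower one, and 4 were at least 1 log2 unit below both. The median log2(FPKM + 1) difference of the 12 was -1.04. Over all genes above 0 these shares were 42.4%, 13.5% and 1.35%, and they stand beside the counts of the lists below as well. Ms4a1, which encodes the B-cell antigen CD20, was at 2.22 and 2.96 FPKM in AAV-ctrl mice and 0.03 FPKM in AAV-IL27 (1.16%, 0.162 to 4.90%). Its level left was near that of Pax5, and its counting interval was below that of Cd79b. Blnk, the adaptor that links the receptor to its downstream enzymes, kept 32.9%, and the inhibitory receptor Cd22 kept 25.1%. Of the other genes above 1 FPKM in AAV-ctrl, Fcer2a (CD23) kept 5.52%, the follicle-homing receptor Cxcr5 kept 11%, the BAFF receptor Tnfrsf13c kept 15.4%, Fcrla kept 15.7%, the receptor-linked kinase Blk kept 16.4% and Cd72 kept 30.4%. The exception was Cd37, a tetraspanin that myeloid cells also express, at 266.5, 287.0 and 281.9 FPKM.

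Early lymphoid and recombination genes outside the set were mostly lower in AAV-IL27. Of 8 genes, 7 were below both AAV-ctrl libraries, 6 were at or under 50% of the lower one, 1 was at least 1 log2 unit below both, and the median log2(FPKM + 1) difference was -0.17. That 1 gene was Ly6d, a surface marker of lymphoid progenitors that turn to the B lineage, at 5.71 and 9.60 FPKM in AAV-ctrl mice and 1.25 FPKM in AAV-IL27 (16.3%). Il7r, the receptor of the main growth factor of mouse B-cell progenitors, kept 29.6% (14.7 to 58.4%). Flt3, a receptor of earlier progenitors, kept 80.7% (43.1 to 151%), and the DNA ligase gene Lig4, used by every cell, kept 89.9% (74.8 to 108%).

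Among 12 other transcription factors with a part in B cells, 10 were below both AAV-ctrl libraries, 7 were at or under 50% of the lower one, and 2 were at least 1 log2 unit below both. These 2 were Pou2af1, a co-activator of OCT factors in B cells, at 1.73, 3.66 and 0.35 FPKM (13.0%), and Spib, an ETS factor of B cells and plasmacytoid dendritic cells, at 2.77, 5.76 and 0.55 FPKM (12.9%). Their AAV-ctrl libraries differed by 0.77 and 0.84 on the log2(FPKM + 1) scale, AAV-ctrl 2 being the higher. Ikzf3, a zinc finger factor of lymphocytes, kept 28.3%, and Bcl11a, which early B-cell development needs, kept 69.8%. Ikzf1 and Tcf3, which are active across blood lineages, kept 99.8% and 106%, and Myb kept 87.4%. The signalling genes that B cells share with myeloid cells, Lyn, Syk, Btk, Plcg2, Inpp5d, Ptpn6, Grb2 and Pik3ap1, were at 95.6% to 121% of the AAV-ctrl mean, and 0 of 8 were at least 1 log2 unit below both AAV-ctrl libraries.

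**Figure D3:**
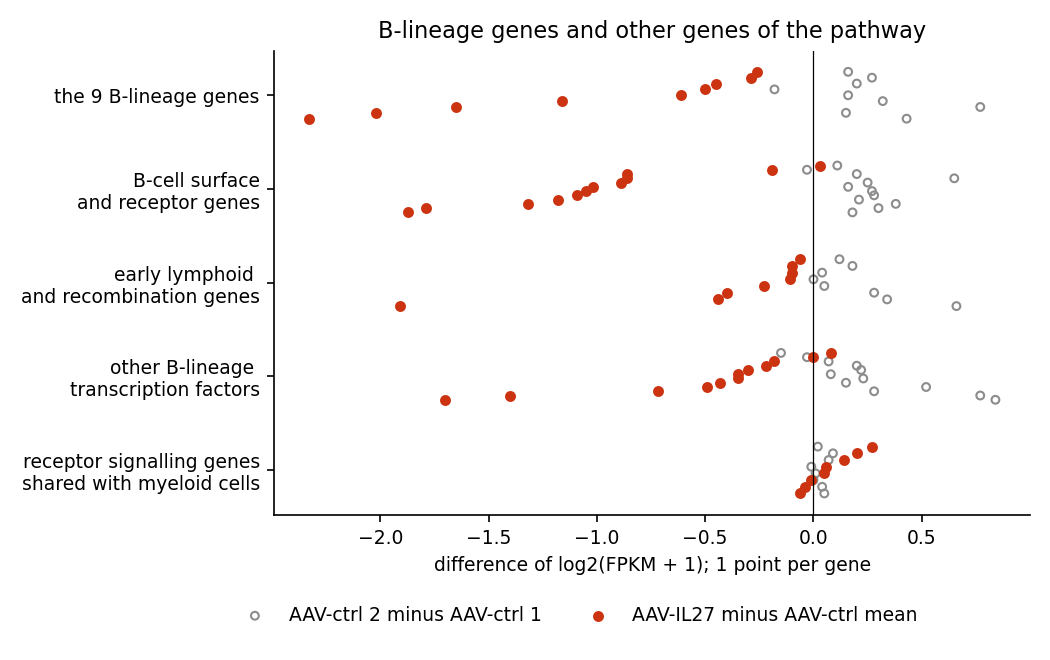
Differences of log2(FPKM + 1) for the 9 B-lineage genes and 4 lists of related genes, 1 point per gene; red points are AAV-IL27 minus the AAV-ctrl mean and open circles are AAV-ctrl 2 minus AAV-ctrl 1. The B-lineage genes lie between -2.33 and -0.26, and the signalling genes shared with myeloid cells lie between -0.06 and 0.27.

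Markers of other cells that could share the gate moved with the B-lineage genes for some cell types and not for others. All 10 of 10 erythroid genes were at least 1 log2 unit below both AAV-ctrl libraries, and they summed to 16244, 10850 and 1851 FPKM across AAV-ctrl 1, AAV-ctrl 2 and AAV-IL27 (13.7% left). For macrophages 7 of 8 genes were lower by this measure, with sums of 512.4, 547.0 and 155.6 FPKM (29.4%), and for megakaryocytes 3 of 6, with sums of 53.0, 59.24 and 9.61 FPKM (17.1%). Cell cycle genes were lower by this measure in 3 of 6 cases, with sums of 53.03, 61.37 and 25.03 FPKM (43.8%). The part of these cells in the lower values of the B-lineage genes was not tested.

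Most genes of the other lists were too low for this measure, which no gene under 1 FPKM in the lower AAV-ctrl library can meet, so they are given by the share of the lower AAV-ctrl value. Over all genes above 0, 42.4% were below both AAV-ctrl libraries and 13.5% were at or under 50% of the lower one. Of the plasma cell genes, 3 of 7 were below both AAV-ctrl libraries and 0 of 7 were at or under 50% of the lower one, with sums of 49.47, 54.83 and 43.59 FPKM (83.6%). Most of these sums was Xbp1, at 43.45, 40.78 and 34.59 FPKM, so they say little about the other plasma cell genes. Jchain was at 4.45, 10.61 and 7.79 FPKM, and Mzb1 was at 0.91, 2.47 and 0.55 FPKM (32.5%). Tnfrsf17 was listed at 0 in all 3 libraries. Of the genes of plasmacytoid dendritic cells, which also express several B-lineage genes, 5 of 6 were below both AAV-ctrl libraries and 1 of 6 was at or under 50% of the lower one, with sums of 2.10, 3.27 and 1.52 FPKM (56.6%) and Siglech at 0.34, 0.39 and 0.33 FPKM. For T and NK cells 2 of 10 genes were below both and 0 of 10 at or under 50%, with sums of 14.98, 16.43 and 15.86 FPKM (101%). These sums join opposite moves. Cd4 was lower, at 4.03, 4.25 and 2.03 FPKM (49.0%), and Gzma was higher, at 0.13, 0.38 and 1.35 FPKM. Cd3d, the largest part of the sums, was at 7.40, 6.35 and 7.06 FPKM. Cd3e was far lower at 0.11, 0.23 and 0.08 FPKM, and Cd3g was at 0.71, 0.22 and 0.66 FPKM. The sums therefore say little about the other T and NK cell genes. The neutrophil genes, all above 1 FPKM on average, had 6 of 12 below both and 0 of 12 at or under 50%, with sums at 95.8% of the AAV-ctrl mean.

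**Figure D4:**
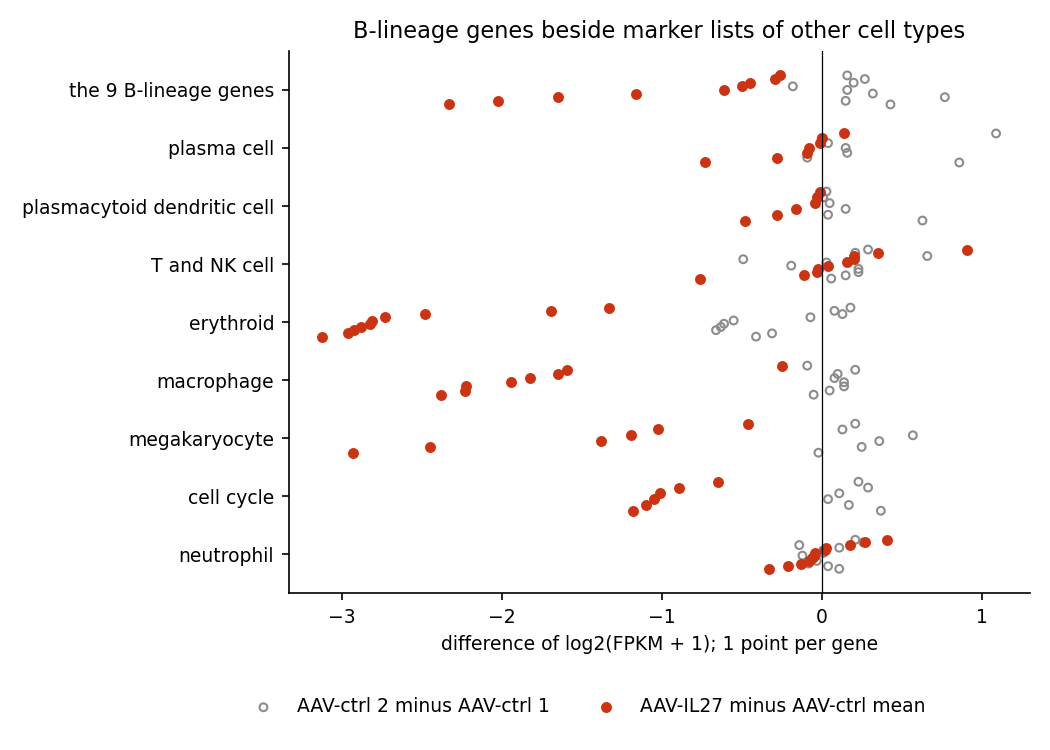
Differences of log2(FPKM + 1) for the 9 B-lineage genes and for marker lists of other cell types, 1 point per gene; red points are AAV-IL27 minus the AAV-ctrl mean and open circles are AAV-ctrl 2 minus AAV-ctrl 1. Erythroid genes lie between -3.12 and -1.33, while neutrophil genes lie between -0.33 and 0.41.

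The genes whose 3 FPKM values ran most like those of the B-lineage genes were sought among 9127 other genes whose mean FPKM reached 1. Likeness was the distance between log2(FPKM + 1) profiles, centred in each gene, and the median profile of Cd79a, Cd79b and Vpreb3 over the 3 libraries. The nearest were Siglec1 (distance 0.023, with 10.02, 11.15 and 1.49 FPKM), Fcgrt (0.024), Cpox (0.054), Cldn13 (0.074) and Axl (0.079), and 11 genes lay within 0.2. With 3 libraries such a match is a description of 3 values.

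**Figure D5:**
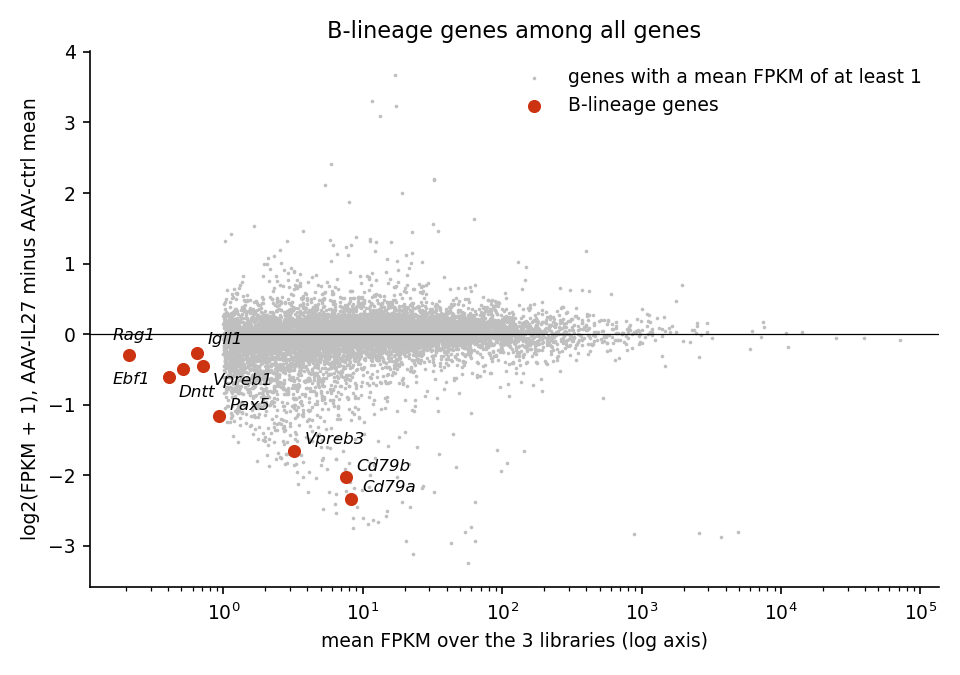
Difference of log2(FPKM + 1) between AAV-IL27 and the AAV-ctrl mean against mean FPKM over the 3 libraries (log axis); grey points are the 9130 genes whose mean FPKM reached 1 and red points the 9 B-lineage genes. Cd79a, Cd79b and Vpreb3 lie at -2.33, -2.02 and -1.65, and the 1st percentile of the grey points is -1.59. Vpreb3 reaches a mean FPKM of 1 only through its AAV-ctrl values, so nothing is read from the place of these 3 genes among the grey points. The other 6 genes have a mean FPKM below 1.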

How the data were processed

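mRNA was enriched with oligo-dT and sequenced as strand-marked (dUTP) libraries on the DNBSEQ platform per the labels. The authors deposited FPKM values for 16073 rows, of which 1 without a symbol was left out. The submitters' processing notes name the build mm10, and the aligner and counting tool are not given in the sources used here. Columns of 3 libraries were matched to the labels, and 1 further column matched no listed sample.

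The FPKM values were compared as log2(FPKM + 1), AAV-IL27 minus the AAV-ctrl mean, and as a percentage of that mean. A gene was called lower at 1 log2 unit or more below both AAV-ctrl libraries. With 1 AAV-IL27 library no test was run. Depth was estimated from the FPKM steps of single-transcript genes (GENCODE M21, 70 nt taken off each length), where 80.2%, 79.1% and 77.3% of 484, 464 and 466 low values fell within 0.2 fragments of a whole number. Fragment numbers are therefore estimates, and exact Poisson 95% intervals on them cover counting error only. Gene positions are from GENCODE M21 and promoter windows from RefSeq (GRCm38.p6), and near-identical transcripts were sought with BLAST 2.17.0.

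Named were the 9 genes, list genes above 1 FPKM in an AAV-ctrl library, the defining markers of other cells and the 5 genes most like the set. Rag2, Vpreb2, Il7r, Flt3 and the genes overlapping a member were named outside this rule. The values of 1 gene of the B-cell surface list, which stays in the counts, are not reported here. The set and the lists were chosen with earlier results of these data known. Calculations in Python 3.11.15 (scipy 1.17.1, pandas 2.3.3, numpy 2.4.6, matplotlib 3.10.9) were tested on simulated data. Alternatives were pseudocounts of 0.1 and 0.01, equal FPKM totals, median ratio rescaling, each AAV-ctrl library left out, other thresholds and other filters. The count of genes whose Poisson intervals did not overlap was added after the data were seen.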

Additional observations from a re-analysis of the deposited data

How the results depend on the processing

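The lower AAV-IL27 values of the 9 B-lineage genes kept their direction in each of the 54 values recomputed for single genes, which ran from -4.49 to -0.16 log2 units. Each AAV-IL27 value was below both AAV-ctrl values, so another pseudocount or the loss of an AAV-ctrl library could not have reversed the direction. Nothing is therefore read from it. The median log2 difference of -0.61 became -2.29 and -2.51 with pseudocounts of 0.1 and 0.01. It was -0.90 with equal FPKM totals, which raises all values and so lessens the weight of the pseudocount. Among the members with a mean FPKM of at least 1, which are only Cd79a, Cd79b and Vpreb3, it was -2.02. Vpreb3 passes that filter only through its AAV-ctrl values, so nothing is read from this median. Leaving out AAV-ctrl 1 or 2 gave -0.69 or -0.59. The count of 4 genes at least 1 log2 unit below both AAV-ctrl libraries became 6 and 8 with pseudocounts of 0.1 and 0.01 and 1 at a threshold of 2, and fell to 3 without Pax5 after median ratio rescaling. Among all genes tested, the count of 212 became 397 and 426 with these pseudocounts, 640 and 39 at thresholds of 0.5 and 2, and 93 with a mean FPKM of at least 5. Leaving out AAV-ctrl 1 or 2 gave 294 or 243. No paired analysis was possible because only 1 replicate number occurs in both groups. In AAV-IL27, 7 of the 9 genes rest on under 8 estimated fragments, all but Cd79a and Cd79b, and values of 0.05 FPKM carry the rounding to 2 decimals.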
